A study of Mus musculus with 19 samples.

Results

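The genes of the CSF1 receptor and the other myeloid growth factor receptors were examined in retinal microglia after laser treatment of the mouse eye. The members were 8 of the 27299 genes in the table, taken by symbol: the ligands *Csf1* and *Il34*, their receptor *Csf1r*, the receptor tyrosine kinase *Kit*, and the cytokine receptor chains *Csf3r*, *Csf2ra*, *Csf2rb* and *Csf2rb2*. All 8 were found. The bulk RNA-seq data held 6 samples from lasered eyes, in which 6 argon laser burns per retina start the growth of choroidal vessels into the retina (experimental choroidal neovascularization, CNV), and 6 samples from unlasered mice. The laser samples were collected on day 3. The mice of both groups were 8 weeks old. The labels name C57BL/6J mice and CD45+ cells. The methods of the study name Cx3cr1 GFP/+ mice, in which one copy of the fractalkine receptor gene is replaced by a fluorescent reporter, and a sort for CD45lo CD11b+ CX3CR1+ Ly6C- Ly6G- cells. This gate holds any cell with these surface proteins, and it removes cells positive for Ly6C or Ly6G. Nothing in the labels says that the samples of a group came from separate mice, so the p-values measure the spread between these samples.

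CSF1 and IL-34 are the ligands of CSF1R, a receptor tyrosine kinase on which microglia and most other tissue macrophages depend for survival. In the nervous system IL-34 is made mainly by neurons, and CSF1 by glial and other cells. GM-CSF binds a receptor made of a specific alpha chain, encoded by *Csf2ra*, and a signalling beta chain, encoded by *Csf2rb*. Mice carry a further beta chain gene, *Csf2rb2*, whose product serves the IL-3 receptor. *Csf3r* encodes the receptor of G-CSF, and *Kit* encodes the receptor of stem cell factor, best known from haematopoietic progenitors, mast cells and melanocytes.

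Values were normalized read counts, that is, reads on a gene divided by a size factor of the sample. Total reads on genes lay between 10963178 and 22335233 in the control samples and between 23532260 and 29523018 in the laser samples, so that the control samples were shallower. Reads of the Y-linked gene *Ddx3y* were present in laser replicates 4 to 6 and absent from the other 9 samples, and the member results are given also without these 3 laser samples where a call was lost. The X-linked *Xist* was at 3116 to 9795 normalized counts in the other 9 samples and at 0 to 0.866 in these 3. By these genes laser replicates 4 to 6 were male and the other 9 samples female, so sex was not balanced between the groups. Of 10 microglia markers 8 were lower in laser and none was higher, with a summed count of 1105306 to 1264154 in control and 554025 to 831815 in laser. Of 12 monocyte markers 5 were higher (*Ly6c2*, *Ccr2*, *Plac8*, *S100a4* and *Ms4a4c*), and their sum was 243 to 1293 in control and 1362 to 4725 in laser. *Ly6c2*, *Chil3* and *Cd177* had no reads in any control sample. Of 8 dendritic cell markers 5 were higher, and their sum was 836 to 1726 in control and 2108 to 4785 in laser, with *Cd209a* and *Cd24a* at 0 reads in all control samples. Much of this sum was *Itgax*, at means of 692 in control and 1852 in laser. The sum of the neutrophil markers was at most 26.4 in every sample. Of 8 Mueller glia and astrocyte markers *Clu*, *Dkk3* and *Vim* were higher and *Slc1a3* was lower, with *Vim* at a mean of 175 in control and 2277 in laser, and their sum was 6846 to 9909 in control and 8080 to 9162 in laser. Of 10 retinal neuron markers *Syt1* and *Thy1* were higher, with sums of 393 to 1595 and 577 to 1545. Of 7 measured endothelial cell and pericyte markers *Kdr* was higher and *Pecam1* lower, with sums of 537 to 991 and 467 to 968. Of 10 photoreceptor markers 0 were called, with sums of 771 to 7338 and 630 to 13217. Over all genes 8.29% were higher and 4.57% were lower. The part of these cell types in the results below was not tested.

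In laser, 4 of the 8 members were higher (*Csf1*, *Csf2rb*, *Csf2rb2* and *Kit*) and 0 were lower at an adjusted p under 0.05 by limma, as against 8.29% higher and 4.57% lower of all genes. The share was larger among the 12753 genes with at least 10 normalized counts in at least 6 samples, with 2160 higher and 1544 lower. With this filter 3 members were higher and 0 were lower. *Csf2rb* and *Csf2rb2* were higher in every laser sample than in every control sample, and such a separation was seen for 4.64% of all genes, with the opposite order in 0 members and 2.83% of all genes. *Csf1* was higher with overlapping groups, and *Kit* had reads in 4 laser samples and in no control sample. *Csf1r*, *Csf2ra*, *Csf3r* and *Il34* did not pass the test. The median log2 fold change (log2FC, of the normalized count plus 1, laser minus control) was 0.53 over the members and 0.15 over all genes. The value over all genes depends on the pseudocount: it was 0.23 with 0.5 and 0.0428 with 5. By limma voom on recovered reads it was -0.0133. With the added demand of an absolute log2FC above 1.5, which the study used to define differentially expressed genes (DEG), 1 member (*Kit*) was higher and 0 were lower, as against 3.91% and 1.07% of all genes. The study applied this demand to a DESeq2 fit and here it was applied to the limma fit, so these counts are not those of the study.

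**Figure D1:**
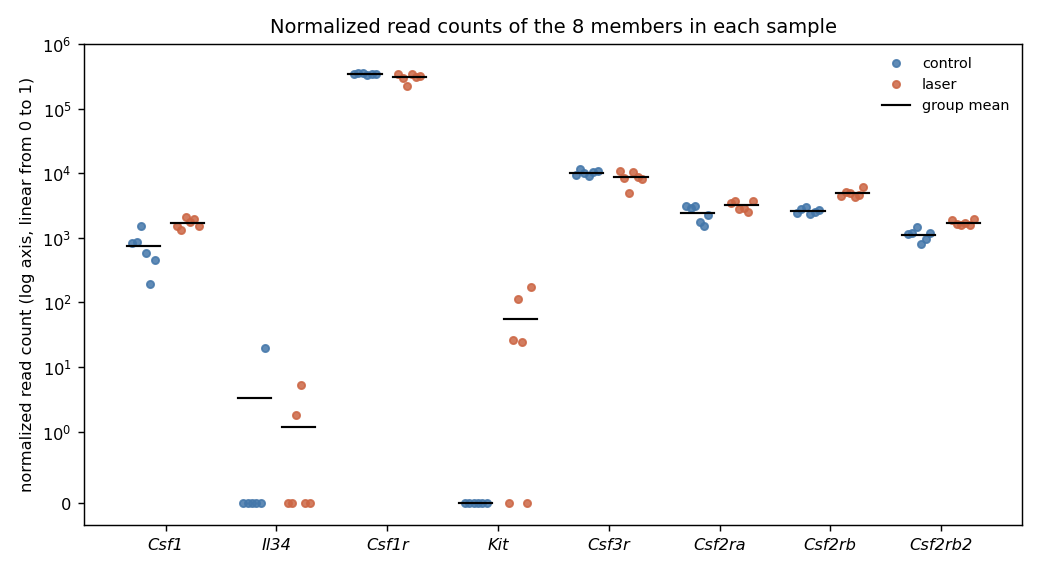
Normalized read counts of the 8 members on a log axis that is linear from 0 to 1, with a point for each of the 6 control and 6 laser samples and a line at the group mean. *Csf1r* lay far above the other members in both groups, only *Csf2rb* and *Csf2rb2* were separated between the groups, and *Kit* was at 0 in all 6 control samples.

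The ligand *Csf1* (GRCm38, chr3:107741048-107760469, minus strand) was measured at 195 to 1502 normalized counts in control, with a median of 702, and at 1308 to 2124 in laser, with a median of 1645. Control replicate 3 was the highest control sample and lay above the lowest laser sample, replicate 2, while the other 5 control samples, at 195 to 873, lay below all laser samples. *Csf1* was higher in laser (log2FC = 1.43, SE = 0.36, limma, adjusted p = 0.0154). The call was kept in 7 of the 12 fits that left out 1 sample, with log2FC from 1.10 to 1.69 over the 12. It was lost without control replicate 6 (limma, adjusted p = 0.0568). It was also lost without laser replicate 3, 4, 5 or 6 (limma, adjusted p = 0.0718, 0.0588, 0.0659 and 0.0607). In the fits that lost it log2FC was 1.34 to 1.45. On the recovered reads limma voom (adjusted p = 0.00767), edgeR without a filter (adjusted p = 0.0169) and DESeq2 (adjusted p = 0.0042) called *Csf1* as well. With the 3 laser samples that lack *Ddx3y* reads alone, log2FC was 1.38 (limma, adjusted p = 0.245).

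*Il34* (chr8:110741829-110805924, minus strand), which encodes the other ligand, was at or near 0 throughout. It had 10 reads in control replicate 6, or 19.9 normalized counts, and no reads in the other 5 control samples. In laser it had 2 reads in replicate 3 and 6 reads in replicate 4, at 1.79 and 5.19 normalized counts, and none in the other 4. The difference was not detectable at this depth (log2FC = -0.05, 95% confidence interval from -1.65 to 1.56, limma, adjusted p = 0.971), and its sign turned without control replicate 6 (log2FC = 0.69). On the recovered reads log2FC was -1.16 by limma voom, -1.31 by edgeR and -1.48 by DESeq2, and none of them called it (adjusted p = 0.598, 0.603 and 0.768). The locus overlaps the gene models *Gm15894* and *Gm15895*.

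*Csf1r* (chr18:61100598-61132149, plus strand), the receptor of both ligands, was the most abundant member. It took 1.58% ± 0.05 of all reads on genes in control and 1.41% ± 0.20 in laser (SD, n = 6 each). By mean normalized count it had rank 4 of all genes in control and rank 2 in laser, and per kb of exon, rank 13 and rank 12 of 27238 genes with a length. Normalized counts ranged from 327338 to 357199 in control, with a median of 347301, and from 221869 to 346917 in laser, with a median of 310305. Laser replicate 3 was the lowest sample, and laser replicates 1 and 4, at 338353 and 346917, lay within the range of the control samples. The difference did not pass the test (log2FC = -0.20, SE = 0.09, 95% confidence interval from -0.39 to -0.02, limma, adjusted p = 0.157), and limma voom on the recovered reads called it lower (log2FC = -0.37, adjusted p = 0.0251). Without laser replicate 3 log2FC was -0.12 (limma, adjusted p = 0.201). In bulk samples a smaller number of cells of a type and less RNA per cell cannot be told apart. Of the 5774 bases of its merged exons some overlap the gene *Hmgxb3*, with which *Csf1r* shares 14.3% of its 50-base windows.

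*Csf3r* (chr4:126024550-126044440, plus strand), the G-CSF receptor, was the next member by level in both groups, at 2832 ± 252 normalized counts per kb in control and 2383 ± 585 in laser (SD, n = 6 each). Its counts ranged from 9024 to 11561 in control, with a median of 10258, and from 4939 to 10763 in laser, with a median of 8596. Laser replicate 3 was again the lowest, and the groups overlapped. The test was not passed (log2FC = -0.29, 95% confidence interval from -0.62 to 0.04, limma, adjusted p = 0.271), and without laser replicate 3 log2FC was -0.14 (limma, adjusted p = 0.446). Neutrophils are the blood cells best known for *Csf3r*, and of 8 measured neutrophil markers 0 were called and 5 (*S100a9*, *Camp*, *Ltf*, *Ngp* and *Cxcr2*) had no reads in any control sample.

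*Csf2ra* (chr19:61223957-61228429, minus strand), the alpha chain that binds GM-CSF, was measured at 1503 to 3145 normalized counts in control, with a median of 2543, and at 2465 to 3754 in laser, with a median of 3187. Control replicates 1, 2 and 3, at 2847 to 3145, lay among the laser samples, and the other 3 control samples were lower than all of them. The difference did not pass the test (log2FC = 0.42, SE = 0.18, 95% confidence interval from 0.03 to 0.82, limma, adjusted p = 0.161).

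The beta chain genes lie side by side on chromosome 15 on opposite strands, *Csf2rb* at chr15:78325752-78353847 on the plus strand and *Csf2rb2* at chr15:78282507-78305721 on the minus strand, 20031 bases apart (GRCm38). Their coding sequences in Gencode M21 aligned over 2631 bases with 95.21% identity. The first 120 coding bases are shown because reads of 50 cycles have to tell these near-identical copies apart. Capitals mark the 4 positions at which they differ in this stretch.
Csf2rb: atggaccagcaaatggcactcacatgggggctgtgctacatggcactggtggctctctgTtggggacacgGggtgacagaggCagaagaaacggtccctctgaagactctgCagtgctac
Csf2rb2: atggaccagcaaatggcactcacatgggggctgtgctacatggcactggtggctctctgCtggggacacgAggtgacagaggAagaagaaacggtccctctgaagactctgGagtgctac
Of all windows of 50 bases in the transcripts of *Csf2rb*, 12.3% also occurred in another gene, nearly all in *Csf2rb2*, and of those of *Csf2rb2*, 18.9%. Reads that map to more than 1 place were not counted at the default settings of the counter, so the counts of both genes leave out reads from the shared stretches, and a read with a sequencing error at a differing base can be given to the wrong copy.

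*Csf2rb* was measured at 2328 to 2957 normalized counts in control, with a median of 2624, and at 4251 to 6045 in laser, with a median of 4735. All 6 laser samples lay above all control samples, and laser replicate 6 was the highest. The increase was larger than the spread between replicates (log2FC = 0.89, SE = 0.10, 95% confidence interval from 0.68 to 1.11, limma, adjusted p = 5.94e-05). The call stayed in each of the 12 fits that left out 1 sample, with log2FC from 0.83 to 0.93. With the 3 laser samples without *Ddx3y* reads, log2FC was 0.88 (limma, adjusted p = 0.0013).

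*Csf2rb2* was measured at 790 to 1448 normalized counts in control, with a median of 1163, and at 1570 to 1928 in laser, with a median of 1660. The highest control sample, replicate 3, lay below the lowest laser sample, replicate 3. It was higher in laser (log2FC = 0.63, SE = 0.14, 95% confidence interval from 0.34 to 0.93, limma, adjusted p = 0.00694). The call was kept in all 12 fits that left out 1 sample. It was lost with the 3 laser samples without *Ddx3y* reads (log2FC = 0.61, limma, adjusted p = 0.106) and with a covariate for these reads (log2FC = 0.61, limma, adjusted p = 0.0502). Both fits compare the same 3 laser samples with the controls, since no control sample had these reads.

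*Csf2rb* and *Csf2rb2* were each separated between the groups, so their sum had to be separated too. The outcome of the test of the sum was thus fixed beforehand and is no further support for the increase. The sum of both genes does not depend on how reads are divided between them. It was 3734 ± 446 normalized counts in control (3118 to 4405) and 6582 ± 729 in laser (5935 to 7973; SD, n = 6 each), a difference of 0.82 on the log2 scale (two-sided exact permutation test over 924 labelings, p = 0.00216, the smallest these can give; 0.00433 adjusted over the 2 such tests). *Csf2rb2* made up 29.8% ± 2.95 of the sum in control and 26.1% ± 2.31 in laser (SD, n = 6 each), a difference of -3.68 percentage points. The share ranged from 25.3% to 32.9% in control and from 24.2% to 29.5% in laser, so the groups overlapped. The exact permutation test gave p = 0.0433 (adjusted 0.0433), and it passed 0.05 in only 4 of the 12 comparisons that left out 1 sample: the difference ran from -4.57 to -3.06 points and p rose to 0.0823 without control replicate 3, laser replicate 3 or laser replicate 6. It also missed 0.05 without control replicate 1, 2 or 6 (exact permutation p = 0.0801, 0.0649 and 0.0736) and without laser replicate 2 or 5 (0.0758 and 0.0606).

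**Figure D2:**
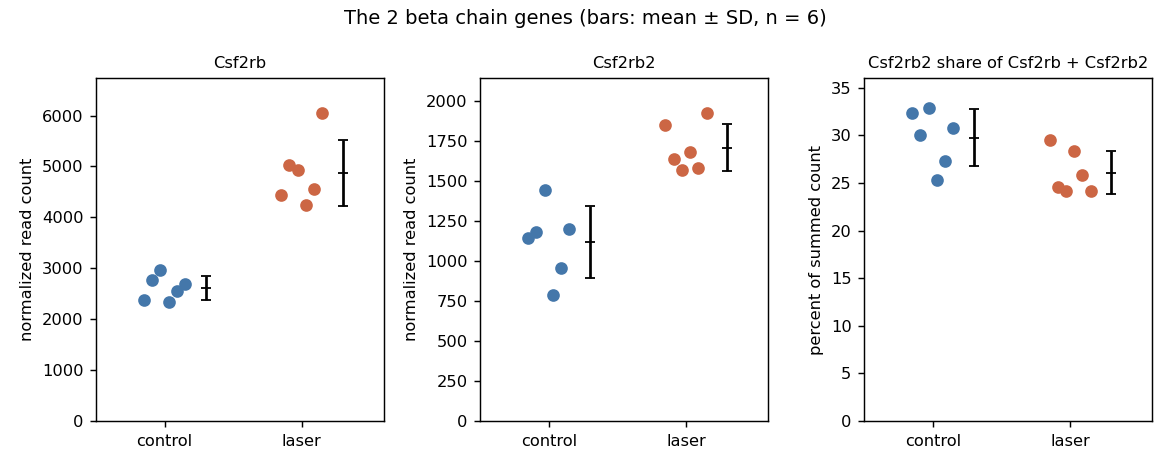
Normalized read counts of *Csf2rb* and *Csf2rb2* and the percent of their sum that *Csf2rb2* takes, with a point for each sample and the mean ± SD beside them (n = 6 per group), all axes from 0. Both genes were higher in all laser samples than in any control sample, while the share overlapped between the groups, at 29.8% and 26.1%.

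*Kit* (chr5:75574916-75656722, plus strand) had 0 reads among the 115732157 reads on genes of the 6 control samples together. In laser it had 31 reads in replicate 2, 124 in replicate 3, 28 in replicate 4 and 208 in replicate 6, and none in replicates 1 and 5. In normalized counts these were 25.9, 111, 24.2 and 173. The laser mean was therefore at least 9.34-fold higher than 3 reads in the shallowest control sample, which are worth 5.96 normalized counts; such a floor covers counting error only. This bound was 5.41-fold without laser replicate 6 and 16.5-fold without control replicate 6, the shallowest. The difference passed the test (limma, adjusted p = 0.0422), but it was lost without any one of the 6 control samples or of laser replicates 2, 3, 4 and 6 (limma, adjusted p from 0.0887 to 0.122), and kept without laser replicate 1 (0.0196) or 5 (0.0234). It was also lost with the 3 laser samples without *Ddx3y* reads (limma, adjusted p = 0.13), and when all samples were thinned to the depth of the shallowest (limma, adjusted p = 0.0777). On the recovered reads edgeR without a filter (adjusted p = 0.0122) and DESeq2 (adjusted p = 0.000223) called *Kit* as well.

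*Flt3*, the receptor of the FLT3 ligand known from dendritic cells and progenitors, belongs with *Csf1r* and *Kit* to the class III receptor tyrosine kinases. It was at 0 to 18.3 normalized counts in control and at 51.9 to 291 in laser, with no overlap (log2FC = 5.04, SE = 0.84, limma, adjusted p = 0.00104). Laser replicates 3 and 6 were the highest samples for *Kit*, for *Flt3* (291 and 274), for the sum of the monocyte markers (4725 and 4237) and for that of the dendritic cell markers (4785 and 4256). The most abundant genes of these 2 lists were *Ms4a4c* and *Itgax*, at laser means of 1241 and 1852. Laser replicate 5, with no *Kit* reads, had the next highest monocyte sum, 3034. For the dendritic cell markers the next highest was laser replicate 2, at 3757 and with 31 *Kit* reads, and laser replicate 5 was at 2847. Of 4 measured mast cell markers, *Hdc*, which encodes histidine decarboxylase, was higher in laser at 0 to 38.5 normalized counts and had no reads in control. The sum of the mast cell markers had another order, with laser replicate 4 highest (50.2), then replicates 3 (39.4) and 6 (21.6). Of 7 measured melanocyte and pigment epithelium markers 0 were called. The part of these cells in the *Kit* reads was not tested.

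**Figure D3:**
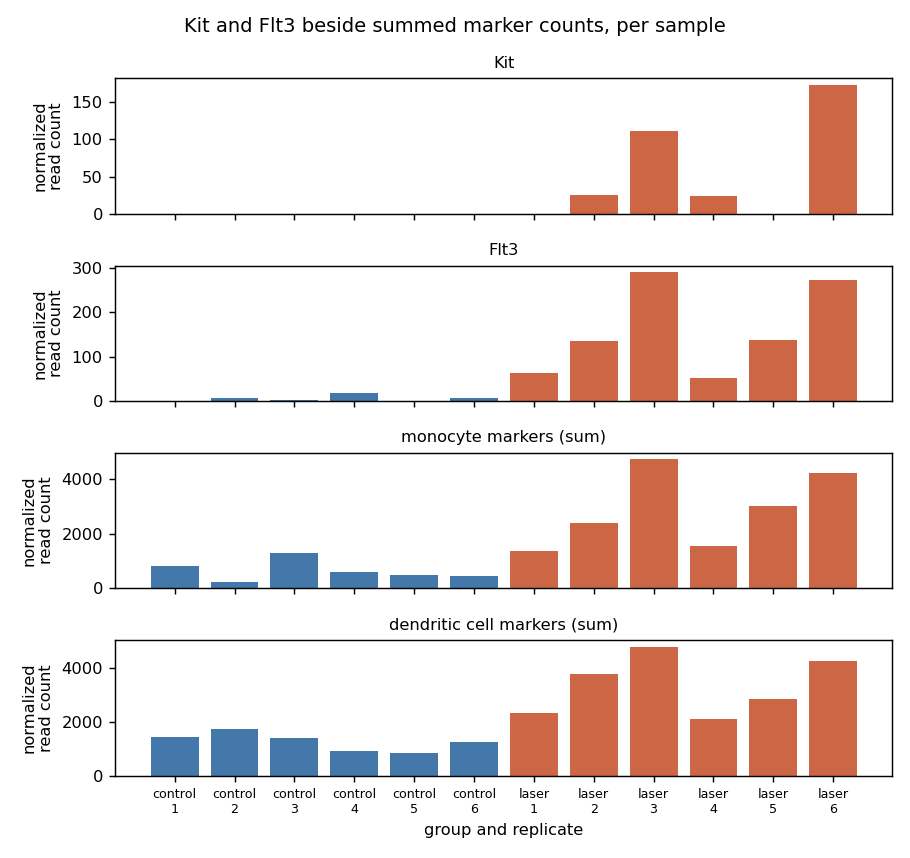
Normalized read counts of *Kit* and *Flt3* and the summed counts of the monocyte and dendritic cell marker lists in each of the 12 samples, as bars from 0. *Kit* was at 0 in all control samples and in laser replicates 1 and 5, and laser replicates 3 and 6 were highest in all panels.

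**Figure D4:**
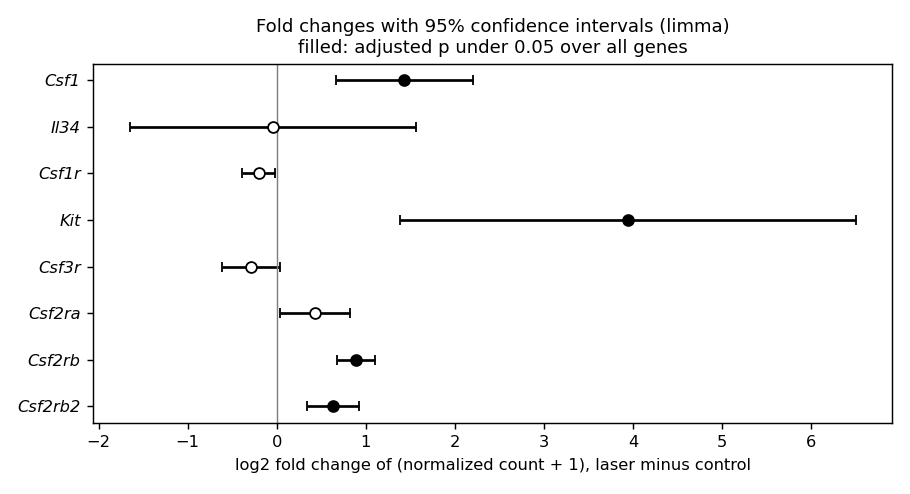
Log2FC of the normalized count plus 1 for each member with its 95% confidence interval from limma, filled where the adjusted p over all genes was under 0.05. The intervals of *Csf1*, *Csf2rb*, *Csf2rb2* and *Kit* lay above 0, as did that of *Csf2ra*, which did not pass; the fitted value of *Kit* depends on the pseudocount, since its control samples were at 0.

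The genes around these receptors were counted in 7 lists, from the main fit of all 12 samples. In that fit 8.29% of all genes were higher and 4.57% lower. Among the 12753 genes with at least 10 normalized counts in at least 6 samples, 2160 were higher and 1544 lower. The lists were not tested as sets. Of 9 class III receptor tyrosine kinases and ligands, *Flt3* was higher, *Pdgfb* was lower, and 7 did not pass the test. *Pdgfb*, a ligand of the related PDGF receptors, fell from 3353 ± 637 to 2234 ± 452 normalized counts (SD, n = 6 each; log2FC = -0.59, limma, adjusted p = 0.0179). Among the haematopoietic cytokines and other receptor chains, 5 of 12 genes were measured, and *Csf2*, *Csf3*, *Il3*, *Il5*, *Il5ra*, *Thpo* and *Epo* were not in the table analysed here. *Il3ra*, the alpha chain of the IL-3 receptor that pairs with the beta chains above, rose from 26.4 ± 10.9 to 118 ± 27.7 normalized counts (SD, n = 6 each; log2FC = 2.23, limma, adjusted p = 0.0036), with laser at 72.9 to 155 and control at 7.51 to 39.6.

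Of 33 genes of receptor signalling 10 were higher, 3 were lower and 20 did not pass the test, with a median log2FC of 0.27. The higher genes were *Gab2*, *Pik3cd*, *Jak2*, *Stat3*, *Fyn*, *Syk*, *Vav1*, *Akt1*, *Akt2* and *Mapk3*. The largest of these log2FC belonged to *Akt2* (0.88, limma, adjusted p = 0.0404), *Fyn* (0.87, 0.0269) and *Gab2* (0.84, 0.0296), which encode a kinase of the PI3K route, a kinase of the SRC family and an adaptor. The lower genes were *Pik3cg* (log2FC = -0.56, limma, adjusted p = 0.00221), *Pik3r1* (-0.46, 0.0229) and *Lyn* (-0.27, 0.008), a SRC family kinase of myeloid cells. *Tyrobp*, the adaptor also known as DAP12 and the most abundant gene of the list, was at 26806 normalized counts in control and 23344 in laser and did not pass the test (limma, adjusted p = 0.27).

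Of 16 negative regulators 4 were higher, 3 were lower and 9 did not pass the test, with a median log2FC of 0.01. The suppressors of cytokine signalling *Socs2* and *Socs3* and the related *Cish*, and the adaptor *Dok2*, were higher. *Socs3* went from 492 to 1294 normalized counts in control to 1873 to 3638 in laser (log2FC = 1.42, limma, adjusted p = 0.000743). *Socs2*, a STAT5 target gene, had no reads in control and 24.2 to 102 normalized counts in laser. *Spry1*, *Ubash3b* and *Dok1* were lower, with log2FC of -1.16, -0.54 and -0.49 (limma, adjusted p = 0.0233, 0.00108 and 0.0408). *Inpp5d*, the lipid phosphatase SHIP1 and the most abundant gene of the list, did not pass the test (log2FC = -0.09, limma, adjusted p = 0.435).

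Of 16 STAT5 and ERK target genes 3 were higher and 3 were lower, with a median log2FC of 0.37. The immediate early gene *Fos* (log2FC = 4.64, limma, adjusted p = 0.0144) and the kinase gene *Pim1* (2.75, 0.00576) were higher, together with the phosphatase gene *Dusp4*, which was at 0 in control and at a mean of 4.93 normalized counts in laser. *Fos* was at 0 to 133 normalized counts in control, with reads in 4 samples, and at 113 to 538 in laser, so the groups overlapped. Its means were 40.9 in control and 243 in laser. *Dusp6*, the most abundant gene of the list and a phosphatase that ERK signalling induces, fell from 14391 ± 2349 to 6497 ± 1293 normalized counts (SD, n = 6 each; log2FC = -1.15, limma, adjusted p = 9.24e-05). *Etv5* (-0.99, 0.000265) and *Bcl2l1* (-0.54, 0.00948) were lower as well.

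Of 6 genes for the shedding of CSF1 and CSF1R from the cell surface 2 were higher: *Adam17*, the protease that cleaves both (log2FC = 0.29, limma, adjusted p = 0.0365), and *Rhbdf2*, which brings it to the surface (0.71, 0.021). *Adam10* was the most abundant of them and did not pass the test (limma, adjusted p = 0.333). Of 9 transcription factors of the *Csf1r* locus 0 were higher and 2 were lower: *Spi1*, which encodes PU.1 (log2FC = -0.37, limma, adjusted p = 0.0129), and *Fli1* (-0.77, 0.000475).

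The genes whose pattern over the 12 samples was most like that of a member were sought among 9713 genes with a mean of at least 100 normalized counts, by Pearson's r of the log2 values after the group means were removed. The values are a description with no test, and the genes compared share their libraries and their depth. For *Csf1r* the first gene was the member *Csf3r* (r = 0.96), followed by *Lpar5* (0.94), *Calhm2* (0.93), *Unc93b1* (0.92) and *Rtn4rl1* (0.92), and r with *Csf3r* was 0.81 in control and 0.98 in laser, where replicate 3 was low for both. For *Csf1* the genes were *Mx1* (0.96), *Nuf2* (0.96), *Cmpk2* (0.95), *Mbd4* (0.93) and *Mcm9* (0.92), with r in laser between 0.53 and 0.61 and in control above those. For *Csf2rb* they were *Ensa* (0.85), *Rpl29* (0.84), *Ndufa13* (0.83), *Taldo1* (0.83) and *Gusb* (0.83). For *Csf2rb2* they were *Epg5* (0.93), *Nelfb* (0.93), *Ift140* (0.92), *Ppp1r37* (0.92) and *Tram2* (0.91), none of which was among those of *Csf2rb*. For *Kit*, which varied only in laser, they were *Gtse1* (0.91), *Selenom* (0.90), *Fam13b* (0.87), *Adcy7* (0.85) and *Zfp354c* (0.80).

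Promoter sequences from RefSeq (GRCm38.p6, 250 bases before to 50 after the start) were matched for 5 of the 8 members. They were searched on both strands for the ETS core GAGGAA that PU.1 binds, the STAT motif TTCNNNGAA, the AP-1 motif TGANTCA, the C/EBP motif TTGCNNAA and the kappaB motif of NF-kappaB. The promoter of *Kit*, also higher in laser, is not shown, and its only match was 1 GAGGAA. The promoters of *Csf1* and *Csf2rb2*, which were higher in laser, are shown with every match in capitals, GAGGAA in *Csf2rb2* being read on the other strand.
Csf1: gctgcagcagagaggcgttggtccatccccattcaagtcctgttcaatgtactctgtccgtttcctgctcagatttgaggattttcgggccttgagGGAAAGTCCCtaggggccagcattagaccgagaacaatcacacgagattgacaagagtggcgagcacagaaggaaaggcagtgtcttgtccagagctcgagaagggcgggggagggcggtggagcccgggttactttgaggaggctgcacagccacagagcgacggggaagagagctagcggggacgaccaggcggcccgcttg
Csf2rb2: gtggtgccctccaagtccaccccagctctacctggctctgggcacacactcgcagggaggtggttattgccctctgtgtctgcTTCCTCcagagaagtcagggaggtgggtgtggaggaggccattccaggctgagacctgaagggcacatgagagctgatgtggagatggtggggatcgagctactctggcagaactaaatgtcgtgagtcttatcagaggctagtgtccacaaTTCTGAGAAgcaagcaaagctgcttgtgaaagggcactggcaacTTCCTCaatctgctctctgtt
The *Csf1* window (chr3:107760420-107760719, minus strand) held 1 kappaB match, as did 4.5% of 32851 mouse promoters. The *Csf2rb2* window (chr15:78305672-78305971, minus strand) held 2 GAGGAA matches and 1 TTCNNNGAA match, motifs that 28.3% and 8.3% of the promoters held. *Csf2ra* held 2 GAGGAA matches, and *Csf3r* and *Kit* held 1 each. The AP-1 and C/EBP motifs, held by 7.81% and 10.8% of the promoters, had no match in the 5 windows. A match of these letters is a description and not a bound site.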

How the data were processed

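Bulk RNA-seq of 12 samples (6 laser, 6 control) was used; 19 entries covered them, since 7 samples were listed in 2 parts, which the authors merged. These were all 6 control samples and laser replicate 4. The listing in parts therefore went almost fully with the groups, and its effect was not tested. The methods of the study describe a merge of 2 alignment files for every sample, each file from its own flow cell. Groups came from the labels. The libraries were made with SMARTer v4 and Nextera XT, which do not mark strand, and read for 50 cycles. The authors aligned the reads with STAR 2.7.2b to GRCm38.p6 with Gencode M25, counted them with featureCounts 1.6.4 at default parameters and divided each count by a DESeq2 1.22.2 size factor; the deposited signal is this normalized count. The deposited fold changes, p-values and group means were not used. The fit was limma 3.58.1 (R 4.3.3, trended variance) on log2(normalized count + 1) over 27299 genes, two-sided, with Benjamini-Hochberg adjustment. Every value was a whole multiple of the value of 1 read (within 0.0001 reads, 100% of values), so reads were recovered for limma voom, edgeR 4.0.16 and DESeq2 1.42.0 as alternatives. Control replicate 5 was treated in the same way. The fits were also run on simulated counts. The changes set there were larger than those of all members but *Kit*, so that run does not test the calls reported here. Exact permutation tests covered the beta chain sum and share.

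The members and gene lists were chosen with earlier results of these data known. Named were all members; for each list, up to 3 genes called higher and 3 called lower with the largest change and a mean of at least 10 normalized counts, and the most abundant gene; and the 5 genes most like each called member and *Csf1r*. Some genes that this rule names are not reported here. *Cish*, *Dusp4* and other genes below that mean are named to complete a count, and were chosen after their values were seen. Gene positions and exon lengths came from Gencode M21, which matched 27238 genes. Depth was 10963178 to 29523018 reads on genes per sample. PCR copies were not marked, so floors cover counting error only. The 3 fits added after the data were seen were a covariate for *Ddx3y* reads, only the 3 laser samples without them, and thinning to the shallowest sample.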

Additional observations from a re-analysis of the deposited data

Results flagged for a closer look

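Single samples stood apart for 1 member. *Il34* in control replicate 6 was at 19.86 normalized counts, with the other 5 control samples at 0, and in laser replicate 4 it was at 5.193 normalized counts, with the next sample at 1.79. These rest on 10 and 6 reads. Chance gives such a gap in about 1 of 20 groups of continuous values, and 15 groups with any reads were examined. That rate does not apply to *Il34*: where the other samples are at 0, any sample with reads stands apart by construction.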

How the results depend on the processing

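*Csf2rb* kept its direction and call in all 25 alternatives, and the beta chain sum in all 16. The sum is not a separate check, since each of its genes was separated between the groups. The cause of the changes below was not tested. With only the 3 laser samples without *Ddx3y* reads 1 member was higher, and *Csf1* (log2FC 1.379), *Csf2rb2* (0.612) and *Kit* (3.853) lost their calls. The beta chain share was then -3.707 points, and over all genes 1022 were higher and 540 lower. A covariate for *Ddx3y* reads gave the same log2FC and lost the same calls, with 1340 genes higher and 731 lower. It is not a separate check. No control sample had these reads, so both fits compare the same 3 laser samples with the controls. The covariate fit differs in its variance, which it takes from all 12 samples. *Kit* also lost its call with a pseudocount of 5 (2.477), without the variance trend (3.943) and after thinning (3.93), and kept it by edgeR without a filter (8.854) and DESeq2 (8.023). It and *Il34* were not tested under the filters on low counts. *Il34* turned sign with a pseudocount of 0.5 (0.05945) and was at -1.155 by voom, -1.314 by edgeR and -1.484 by DESeq2, with no call. limma voom called 1 member lower, *Csf1r* (-0.3674). The DEG rule on the limma fit left 1 member, with 1068 genes higher and 293 lower, and DESeq2 called 2170 genes lower. The median log2FC of all genes was 0.146, and -0.0133 by voom. Leaving out 1 sample gave 2 to 4 members higher, and log2FC of 1.098 to 1.687 for *Csf1*, -0.4344 to 0.6851 for *Il34*, 3.243 to 4.731 for *Kit*, -0.2441 to -0.1151 for *Csf1r* and -0.361 to -0.1363 for *Csf3r*, both nearest 0 without laser replicate 3, and -4.568 to -3.059 points for the share.

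The labels share replicate numbers without naming a pairing, and same-numbered samples did not deviate together (r from -0.0526 to 0.0707 over 9713 genes). With the replicate block, *Kit* (3.943, adjusted p = 0.0518, limma) and the share (-3.677 points, exact permutation p = 0.125) lost their calls, 3 members were higher, and 1885 genes were higher and 975 lower. The depth of the shallowest control sample sets the bound for *Kit*.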
